A study of Mus musculus with 49 samples.

Results

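Mvk, Fdps and Sc5d encode 3 enzymes of cholesterol synthesis, and their mRNA levels were followed here through 49 arrays of mouse fibroblasts, fibroblasts infected with reprogramming factors, and pluripotent stem cell lines. The 3 genes were taken by their current mouse symbols from the 13852 genes that the named probes of the table cover. Each is measured by 1 probe, and each probe has a value on all 49 arrays. In GRCm38.p6, Mvk lies at chr5:114444264-114460591 on the plus strand, Fdps at chr3:89093588-89101967 and Sc5d at chr9:42251592-42264300 on the minus strand.

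Mammalian cells build cholesterol from acetyl-CoA by way of mevalonate. Mevalonate kinase, encoded by Mvk, adds the first phosphate to mevalonate early in this route. Farnesyl diphosphate synthase, encoded by Fdps, makes farnesyl diphosphate, the branch point from which cells draw sterols, dolichol, ubiquinone side chains and the lipid anchors of prenylated proteins. Sterol-C5-desaturase, encoded by Sc5d, introduces a double bond into the sterol ring close to the end of the route. Transcription of the pathway is driven largely by SREBP2, which is held back when sterols are plentiful.

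The labels describe fibroblasts (MEF) prepared from the skin of limbs and tails of female mice of strain OGXICR at age D13.5, with the epidermis taken off, and grown in medium with 10% fetal bovine serum. Factors were delivered with a doxycycline-inducible lentivirus. The labels do not spell out SKM, OKM and EV. From the factors the series names, SKM is read here as Sox2, Klf4 and cMyc, and OKM as Oct4, Klf4 and cMyc, and EV is kept as written. Fibroblasts infected with SKM together with HNF4a, CEBPa, GRB2, SOX7, PAX1, GATA6, MIXL1 or OCT4 had 2 arrays each, with GATA4 3 arrays, with EV 2 arrays, and MEF1 EV, their infected control, 2 arrays. OKM with SOX1, SOX3, GMNN or SOX2 had 2 arrays each, OKM+EV 3 arrays and its control MEF2 EV 2 arrays. G6Gm and G3, which are lines of induced pluripotent stem cells (iPSC), an iPSC group treated with Dlx3 RNAi and the embryonic stem cell (ESC) line R1 of strain 129 had 2 arrays each, as did uninfected fibroblasts, and ESC line B6 of strain C57BL\6 had 3. The pluripotent lines grew without serum, with PD0325901 and CHIR99021 or LIF, on mitomycin C-treated fibroblast feeders. What G3 and G6Gm were made with is not given in the labels, and nothing there says that arrays of a group come from separate cultures, so p-values here speak only to how much arrays of a group vary, which may be technical.

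The deposited values are linear intensities, and the arrays fall into 5 sets whose sorted values nearly coincide within a set. Set A held ESC B6, set B MEF2 EV and OKM+EV, set C the other OKM groups, set D MEF1 EV and every SKM group, and set E the uninfected fibroblasts, the iPSC groups and ESC R1. Array medians were 434 to 434.2 in set A, 391.2 to 392.4 in B, 370.3 to 371.3 in C, 400.8 to 416.1 in D and 295.9 to 296.2 in E, and tests were made only within a set. The labels could be checked by few probes. Of the 9 factors added to SKM, 4 had a value for their own gene and none of these 4 genes passed as higher. Pou5f1 was higher on both arrays of OCT4+SKM without passing, at 158 to 170, against 108 to 129 in SKM+EV (0.39 on the log2 scale, adjusted p 0.559 from limma). Gata4 was lower in GATA4+SKM, at 230.0 to 379, against 1083 to 1099.8 in SKM+EV (log2 fold change -1.72, adjusted p 9.35e-05). Klf4, a member of both cocktails, was lower in SKM+EV, at 1663 to 1723, against 3511 to 3673 in MEF1 EV (-1.07, adjusted p 0.000206), and did not pass in OKM+EV against MEF2 EV (-0.29, adjusted p 0.216). Nor did Pou5f1, which encodes Oct4, in OKM+EV against MEF2 EV, Sox1 in OKM+SOX1 or Sox3 in OKM+SOX3 against OKM+SOX2 (adjusted p 0.865, 0.798 and 0.999). Where these probes lie in the transcripts, and so whether they can see a lentiviral mRNA, is not given in the sources used here. Dlx3 was 254 to 384 in the iPSC treated with Dlx3 RNAi, against 233 to 299.9 in iPSC G6Gm, 300.0 to 451 in iPSC G3 and 531 to 615 in ESC R1, and none of these 3 differences passed. None of the delivered factors with a value passed as higher, and the groups, SKM+EV as the control of most set D comparisons among them, rest on their labels.

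The stretch just before the start site is shown for Mvk and Sc5d. Any part of these stretches in the levels of the 2 genes was not tested. The sequences are the 250 bases before the annotated start in RefSeq, build GRCm38.p6, read 5′ to 3′ on the gene's own strand. The start used is that of the promoter table, which for Mvk is base 114444269 and lies 5 bases inside the gene span given above. Capitals mark every match, on either strand, to the CCAAT box (CCAAT), the GC box (GGGCGG), an E-box (CACGTG) or the sterol regulatory element TCACNCCAC, and none of the matches overlap.
Mvk, chr5:114444019-114444268, plus strand: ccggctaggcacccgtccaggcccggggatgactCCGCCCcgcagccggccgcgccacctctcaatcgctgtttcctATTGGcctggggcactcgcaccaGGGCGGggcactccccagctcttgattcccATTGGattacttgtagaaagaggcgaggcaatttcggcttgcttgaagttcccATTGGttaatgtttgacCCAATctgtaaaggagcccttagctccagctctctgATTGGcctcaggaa
Sc5d, chr9:42264301-42264550, minus strand: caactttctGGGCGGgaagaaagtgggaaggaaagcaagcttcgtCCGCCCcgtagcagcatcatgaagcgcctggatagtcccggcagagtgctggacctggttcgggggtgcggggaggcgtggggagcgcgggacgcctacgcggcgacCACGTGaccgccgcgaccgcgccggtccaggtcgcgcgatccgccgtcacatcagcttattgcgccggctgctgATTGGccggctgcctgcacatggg
The Mvk stretch held 5 CCAAT boxes, the nearest ending 10 bases before the start, and 2 GC boxes. The Sc5d stretch held 1 CCAAT box, 2 GC boxes and 1 E-box. Among 32536 such promoter stretches in the same table, 33.8 percent held a CCAAT box, 33 percent a GC box, 6.04 percent this E-box and 1.04 percent the sterol regulatory element as spelled here, which neither gene's stretch held. A match is a run of letters and not a shown binding site. Fdps was not matched in the promoter table.

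Mvk and Sc5d were several-fold lower in all 4 pluripotent groups of set E than in uninfected fibroblasts, whereas Fdps followed no common direction. Mvk, the mevalonate kinase, had intensities of 259 and 213 in iPSC G6Gm, 289 and 269 in iPSC G3, 265 and 307 in the Dlx3 RNAi iPSC and 178 and 218 in ESC R1, against 1184 and 1099.6 in fibroblasts. No array of a pluripotent line came near the fibroblast arrays. The mean was 249.8 ± 43.2 in the lines (SD, n = 8) and 1142 ± 59.3 in fibroblasts (SD, n = 2), 4.57-fold lower in the lines. On the scale of log2(intensity + 32) the difference was -2.07 (SE 0.16, adjusted p 3.56e-12 from limma, Benjamini-Hochberg over 11991 genes).

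Sc5d, the C5-desaturase, had intensities of 272 and 324 in iPSC G6Gm, 174 and 152 in iPSC G3, 300.4 and 244 in the Dlx3 RNAi iPSC and 233 and 162 in ESC R1, against 1066 and 1212 in fibroblasts. Again the groups did not overlap. The mean was 233 ± 65.0 in the lines and 1139 ± 103 in fibroblasts, 4.89-fold lower in the lines, with a log2 difference of -2.18 (SE 0.20, adjusted p 1.06e-10). Fdps, the farnesyl diphosphate synthase, gave 452 and 529 in iPSC G6Gm, 1116 and 1151 in iPSC G3, 860.3 and 777 in the Dlx3 RNAi iPSC and 737 and 683 in ESC R1, against 837 and 854 in fibroblasts. Its fibroblast arrays lay inside the range of the lines, and the difference of means was -0.16 on the log2 scale (95% interval -0.46 to 0.15, adjusted p 0.375). Thus 2 of the 3 genes fell and 1 did not pass, in a comparison in which 57.8 percent of all genes passed, 28.7 percent as higher and 29.1 percent as lower.

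**Figure D1:**
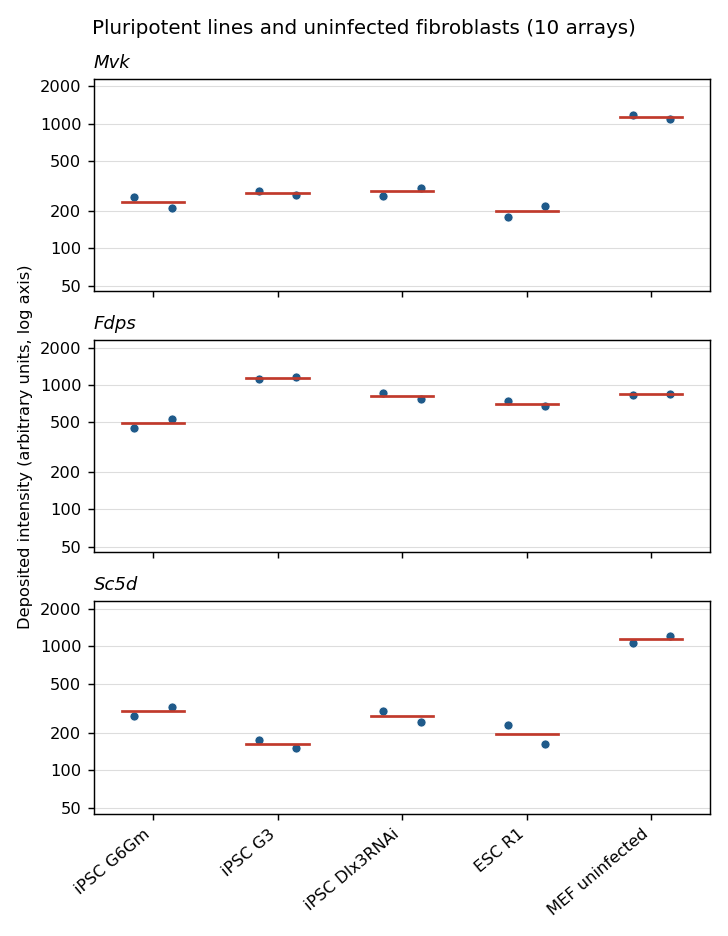
Intensity of Mvk, Fdps and Sc5d on each array of set E, on a log axis in arbitrary units; dots are arrays and red lines group means. Mvk and Sc5d of the 4 pluripotent groups lie at or below 324 and of uninfected fibroblasts at or above 1066, while Fdps spans 452 to 1151 in the pluripotent groups around the fibroblast values of 837 and 854.

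Taken line by line, the falls of Mvk and Sc5d passed in each of the 4 groups, where 40.2 percent of genes passed in iPSC G6Gm, 52.3 in iPSC G3, 48.3 in the Dlx3 RNAi iPSC and 53.2 in ESC R1. Mvk ranged in log2 difference from -1.88 in the Dlx3 RNAi iPSC to -2.36 in ESC R1, and Sc5d from -1.83 in iPSC G6Gm to -2.59 in iPSC G3. Fdps was lower in iPSC G6Gm (log2 difference -0.75, SE 0.19, adjusted p 0.00189). In iPSC G3 it stood above fibroblasts on both arrays without passing (0.41, 95% interval 0.02 to 0.80, adjusted p 0.07). In the Dlx3 RNAi iPSC and in ESC R1 its differences were -0.05 and -0.24, with adjusted p 0.855 and 0.286. These 4 comparisons share the 2 fibroblast arrays. The summed intensity of 4 measured pluripotency markers was 8777 to 16079 in the lines and 325 to 333 in fibroblasts, and that of 11 fibroblast markers was 13626 to 53458 in the lines and 65756 to 72115 in fibroblasts, none of them at 0. The part of feeder or other fibroblast RNA in the levels of these lines was not tested. In such bulk samples, fewer cells of a type and less RNA per cell cannot be told apart.

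Among the pluripotent groups themselves, differences passed for Fdps and Sc5d and none did for Mvk. Fdps ran, low to high, through iPSC G6Gm (491 ± 54.5), ESC R1 (709.9 ± 38.5), Dlx3 RNAi iPSC (819 ± 58.8), fibroblasts (846 ± 12.2) and iPSC G3 (1133 ± 25.1), and of these neighbours the arrays of Dlx3 RNAi iPSC and fibroblasts overlapped. iPSC G6Gm had 2.31-fold less Fdps than iPSC G3 (log2 difference -1.16, SE 0.19, adjusted p 2.75e-05, where 19.7 percent of genes passed). Dlx3 RNAi iPSC had 1.67-fold more than iPSC G6Gm (0.71, SE 0.19, adjusted p 0.036, where 2.84 percent passed), and iPSC G3 1.60-fold more than ESC R1 (0.65, SE 0.19, adjusted p 0.0265, where 8.33 percent passed). The last 2 calls, and that of Sc5d below, were lost whenever any 1 of the 4 arrays compared was left out, with adjusted p of 0.118 to 0.300, 0.0954 to 0.181 and 0.0684 to 0.213.

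Sc5d went the other way between the same 2 iPSC lines. It averaged 298 ± 37.3 in iPSC G6Gm and 163 ± 16.1 in iPSC G3, a log2 difference of 0.76 (SE 0.25, adjusted p 0.0314). Mvk averaged 236 ± 33.0 in iPSC G6Gm and 279 ± 14.7 in iPSC G3 and did not pass (-0.22, 95% interval -0.64 to 0.20). The mean of the 3 iPSC groups against ESC R1 gave no call for any of the 3 genes, where 7.2 percent of all genes passed as higher and 6.35 percent as lower. Mvk came nearest, with 267 ± 32.1 in the iPSC groups and 198 ± 27.8 in ESC R1 (log2 difference 0.38, adjusted p 0.146). With set E fitted alone that difference had an adjusted p of 0.0349, where 29.9 percent of genes passed. No member passed in iPSC G6Gm against ESC R1, Dlx3 RNAi iPSC against ESC R1 or Dlx3 RNAi iPSC against iPSC G3, where 17.6, 19.4 and 25.3 percent of genes passed. The nearest were Fdps in iPSC G6Gm against ESC R1 (-0.51, adjusted p 0.0613) and Sc5d in Dlx3 RNAi iPSC against iPSC G3 (0.64, adjusted p 0.0622).

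Between SKM+EV and MEF1 EV, in set D, Fdps alone of the 3 genes passed. It stood among the dimmest probes in MEF1 EV, with 56.0 and 57.5, at the 1.49 to 2.08 percentile of all probes. In SKM+EV it was 142 and 176, and the means were 159 ± 24.0 in SKM+EV and 56.7 ± 1.11 in MEF1 EV, 2.81-fold higher in SKM+EV (log2 difference 1.10, SE 0.19, adjusted p 5.26e-05). Mvk had 731 and 649 in SKM+EV against 713 and 642 in MEF1 EV, and its arrays overlapped (0.03, 95% interval -0.39 to 0.45). Sc5d had 285 and 413 in SKM+EV against 267 and 226 in MEF1 EV, higher on both arrays without passing (0.44, 95% interval -0.08 to 0.95, adjusted p 0.258). So 1 of 3 genes rose in a comparison in which 19.7 percent of genes passed, 9.99 percent as higher and 9.69 percent as lower.

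HNF4a, CEBPa and GRB2, each together with SKM, gave the highest Fdps levels of set D. HNF4a and CEBPa are transcription factors best known in liver and, for CEBPa, fat and myeloid cells, and GRB2 is an adaptor of receptor tyrosine kinase signalling. Fdps was 1784 and 1641 in HNF4a+SKM, 1401 and 1409 in CEBPa+SKM and 1097 and 1039.5 in GRB2+SKM, against 142 and 176 in SKM+EV. These 6 arrays lay far above every other array of the set, of which the highest, from GATA4+SKM, had 389.6. Against SKM+EV, HNF4a+SKM was 10.8-fold higher (log2 difference 3.19, SE 0.19, adjusted p 4.45e-14), CEBPa+SKM 8.82-fold (2.91, SE 0.19, adjusted p 4.27e-13) and GRB2+SKM 6.71-fold (2.53, SE 0.19, adjusted p 1.51e-11). In these comparisons 42.5, 34.6 and 40.3 percent of all genes passed, and 22.9, 20 and 23.2 percent passed as higher. Within an array, Fdps stood at the 70.4 to 72.1 percentile of probes in HNF4a+SKM, 67.3 to 67.5 in CEBPa+SKM and 60.5 to 61.7 in GRB2+SKM.

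The same 6 arrays had the highest medians of set D, at 412.6 to 416.1, against 400.8 to 408.1 on the other 17 arrays. After quantile normalization within the set was applied again, the 3 differences were 3.19, 2.91 and 2.53. Sorted values of the set nearly coincided beforehand, so this step could change little. The part of array handling in these differences was not tested. Keratinocyte markers, 6 of 8 with a value and none at 0, differed between these groups too. Their summed intensity was 15149 to 28380.5 in HNF4a+SKM, CEBPa+SKM and GRB2+SKM, 83774 to 84361 in SKM+EV and 2177 to 2572 in MEF1 EV. In PAX1+SKM, where Fdps did not pass against SKM+EV, the sum was 7419 to 8244, the lowest of the SKM groups. The part of these markers in the result was not tested. The fold over MEF1 EV, 30.2 for HNF4a+SKM, 24.8 for CEBPa+SKM and 18.8 for GRB2+SKM, rests on a dim signal for which no detection call was used here. Its log2 size moved with the pseudocount, from 4.91 at 1 to 3.53 at 100 for HNF4a+SKM.

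Mvk and Sc5d also had their highest means in these 3 groups, by much smaller steps. For Sc5d, both arrays of SOX7+SKM, at 478 and 559, and GATA6+SKM replicate 2, at 553, lay within the range of these groups. Mvk was 1104 and 1153 in HNF4a+SKM, 935 and 998 in CEBPa+SKM and 833 and 883 in GRB2+SKM, against 731 and 649 in SKM+EV. All 6 arrays exceeded both SKM+EV arrays, but of the 3 groups HNF4a+SKM alone passed (log2 difference 0.69, SE 0.21, adjusted p 0.00801), and that call was lost without SKM+EV replicate 2 or without HNF4a+SKM replicate 2 (highest adjusted p 0.0614). CEBPa+SKM and GRB2+SKM differed by 0.47 and 0.30, with adjusted p 0.0768 and 0.244. Sc5d was 631 and 464 in HNF4a+SKM, 532 and 600.3 in CEBPa+SKM and 620.2 and 569 in GRB2+SKM, against 285 and 413 in SKM+EV. It passed in CEBPa+SKM (0.67, SE 0.25, adjusted p 0.0389) and GRB2+SKM (0.74, SE 0.25, adjusted p 0.0207) and not in HNF4a+SKM (0.61, SE 0.25, adjusted p 0.0507). Both Sc5d calls were lost without SKM+EV replicate 1 or without either array of the factor's own group, at adjusted p up to 0.353 and 0.246.

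**Figure D2:**
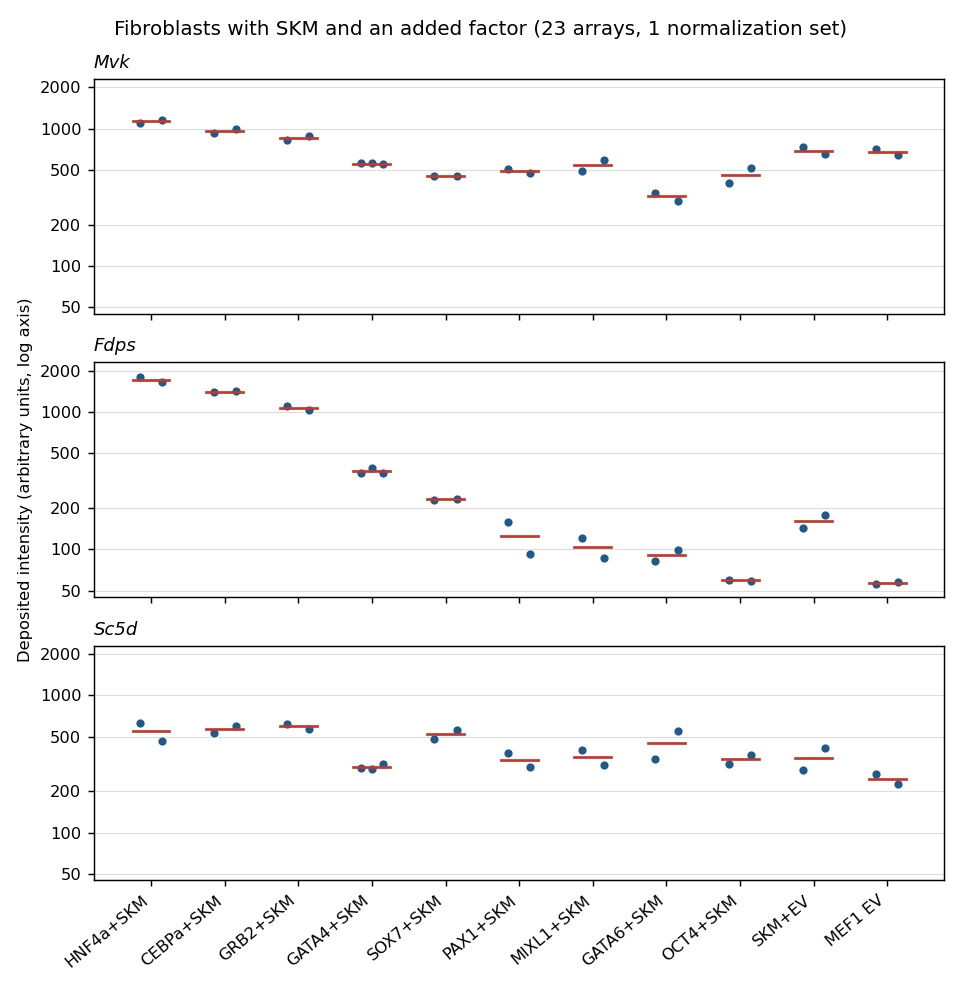
Intensity of Mvk, Fdps and Sc5d on each array of set D, on a log axis in arbitrary units; dots are arrays and red lines group means. Fdps of HNF4a+SKM, CEBPa+SKM and GRB2+SKM lies between 1039.5 and 1784, above all other arrays of the set, while OCT4+SKM at 60.2 and 58.7 lies beside MEF1 EV at 56.0 and 57.5.

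OCT4 had the opposite sign to these factors for Fdps. OCT4+SKM had 60.2 and 58.7, against 142 and 176 in SKM+EV, 2.68-fold lower (log2 difference -1.06, SE 0.19, adjusted p 0.000167, where 11 percent of genes passed). Set against MEF1 EV instead, OCT4+SKM differed by 0.04 (95% interval -0.34 to 0.43), and both groups were among the dimmest probes. GATA6+SKM had less Fdps as well, with 82.8 and 98.9 (-0.64, adjusted p 0.0137, where 22 percent passed), a call lost without SKM+EV replicate 2 or GATA6+SKM replicate 1 (highest adjusted p 0.128). GATA4+SKM had 359, 389.6 and 362, 2.32-fold above SKM+EV (1.08, SE 0.17, adjusted p 7.36e-06, where 53.8 percent passed). GATA4 and GATA6 are related zinc-finger factors, and their arrays of Fdps lay on opposite sides of SKM+EV. Cell-type markers moved in these groups too: keratinocyte sums were 34228 to 37235 in OCT4+SKM, 62449 to 68776 in GATA6+SKM and 12546 to 14417 in GATA4+SKM, against 83774 to 84361 in SKM+EV. Over 11 of 14 fibroblast markers the sums were 139690 to 141087 in OCT4+SKM, 72848 to 74484 in GATA6+SKM and 103520 to 110895 in GATA4+SKM, against 145513 to 156389 in SKM+EV. None of these markers was at 0, and their part in the results was not tested.

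SOX7, PAX1 and MIXL1 gave no Fdps call against SKM+EV. The values were 228 and 234 in SOX7+SKM (0.46, adjusted p 0.108), 158 and 92.3 in PAX1+SKM (-0.31, adjusted p 0.278) and 121 and 86.3 in MIXL1+SKM (-0.50, adjusted p 0.233), where 12.1, 15.7 and 2.1 percent of genes passed. The arrays of PAX1+SKM overlapped those of SKM+EV and the others did not. From low to high the Fdps means of set D ran MEF1 EV, OCT4+SKM, GATA6+SKM, MIXL1+SKM, PAX1+SKM, SKM+EV, SOX7+SKM, GATA4+SKM, GRB2+SKM, CEBPa+SKM and HNF4a+SKM. The arrays of neighbours overlapped among GATA6+SKM, MIXL1+SKM, PAX1+SKM and SKM+EV, and at no other step.

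Against MEF1 EV, 8 of the 9 factor groups passed as higher in Fdps, and OCT4+SKM did not. All genes passed at 52.8 percent in HNF4a+SKM, 48.3 in CEBPa+SKM, 50.6 in GRB2+SKM, 58 in GATA4+SKM, 34.7 in SOX7+SKM, 18.5 in PAX1+SKM, 24.1 in MIXL1+SKM, 39.4 in GATA6+SKM and 22.4 in OCT4+SKM. After the 3 highest, these were GATA4+SKM (log2 difference 2.18), SOX7+SKM (1.57), PAX1+SKM (0.79), MIXL1+SKM (0.60) and GATA6+SKM (0.47), with adjusted p from 7.91e-12 to 0.0499. The GATA6+SKM call was lost without any 1 of the 4 arrays compared, that of MIXL1+SKM without either MEF1 EV array or MIXL1+SKM replicate 1, and that of PAX1+SKM without PAX1+SKM replicate 1, at adjusted p up to 0.268, 0.236 and 0.166. These comparisons share the MEF1 EV arrays with each other, as those against SKM+EV share the SKM+EV arrays.

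Mvk kept a narrower range, and GATA6 marked its low end. GATA6+SKM had 342 and 299, against 731 and 649 in SKM+EV, 2.15-fold lower (log2 difference -1.03, SE 0.21, adjusted p 0.000284). OCT4+SKM had 404 and 519.6, SOX7+SKM 451 and 448, PAX1+SKM 508 and 474, MIXL1+SKM 495 and 595, and GATA4+SKM 557, 565 and 548. All of these arrays lay below both SKM+EV arrays, yet none of the 5 groups passed, at adjusted p from 0.0604 to 0.671. With set D fitted alone, which estimates the spread from its own 23 arrays, OCT4+SKM (-0.56, adjusted p 0.00395), SOX7+SKM (-0.58, adjusted p 0.00297), PAX1+SKM (-0.46, adjusted p 0.0103) and GATA4+SKM (-0.29, adjusted p 0.0348) passed as lower and CEBPa+SKM (0.47, adjusted p 0.00565) as higher. In that fit 22.9, 24.8, 32.8, 66.2 and 50.1 percent of all genes passed in these 5 groups, in the order given. Against MEF1 EV, Mvk passed as lower in GATA6+SKM (-1.01, adjusted p 0.00019) and SOX7+SKM (-0.56, adjusted p 0.0351) and as higher in HNF4a+SKM (0.71, adjusted p 0.0046) and CEBPa+SKM (0.49, adjusted p 0.0474). The SOX7+SKM and CEBPa+SKM calls were lost without any 1 of the arrays compared, at adjusted p of 0.0678 to 0.173 and 0.0833 to 0.191.

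Sc5d did not pass against SKM+EV in GATA6+SKM, SOX7+SKM, PAX1+SKM, GATA4+SKM, MIXL1+SKM or OCT4+SKM. Its values were 344 and 553 in GATA6+SKM, 478 and 559 in SOX7+SKM, 378 and 301 in PAX1+SKM, 293, 292 and 316 in GATA4+SKM, 396 and 310.5 in MIXL1+SKM and 315 and 368 in OCT4+SKM. The SKM+EV arrays, at 285 and 413, were themselves far apart, and the intervals of the 6 differences reached from -0.65 to 1.06. The arrays of 5 of these 6 groups overlapped with SKM+EV, and those of SOX7+SKM lay above it. Against MEF1 EV, at 267 and 226, Sc5d passed as higher in GRB2+SKM (1.17), CEBPa+SKM (1.11), HNF4a+SKM (1.05), SOX7+SKM (0.98) and GATA6+SKM (0.76), with adjusted p from 0.000309 to 0.0173 where 34.7 to 52.8 percent of genes passed, the last of these calls being lost without MEF1 EV replicate 2 or GATA6+SKM replicate 2.

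The pathway was read from a list of 21 cholesterol synthesis genes that includes the 3 members. Of these 21, 16 had a named probe and were analysed here, and counts over the list include the members' own calls. In set D 13 were tested, without Pmvk, Fdft1 and Lss. Against SKM+EV, 7 of the 13 rose and none fell in each of HNF4a+SKM, CEBPa+SKM and GRB2+SKM, with median log2 differences of 0.68, 0.60 and 0.61 beside 0.03, 0.02 and 0.07 over all genes, of which 22.9, 20 and 23.2 percent rose. The 7 included Fdps in each group, Mvk in HNF4a+SKM, and Sc5d in CEBPa+SKM and GRB2+SKM. With dim genes left out, which took out the members themselves, the count was 3 in each group. Without 1 of the arrays in turn, the count of rises was 6 to 7 in HNF4a+SKM and 3 to 5 in both CEBPa+SKM and GRB2+SKM. The CEBPa+SKM count fell below 5 without SKM+EV replicate 1 or either of its own arrays, and the GRB2+SKM count without SKM+EV replicate 1 or GRB2+SKM replicate 1. Dhcr7, the reductase of the last step, was 336 ± 8.32 in HNF4a+SKM and 62.4 ± 3.23 in SKM+EV (1.96, adjusted p 4.7e-08), and Sqle, the squalene epoxidase, 3034 ± 122 in HNF4a+SKM and 1088 ± 11.3 in SKM+EV (1.45, adjusted p 0.000197). The SKM+EV level of Dhcr7 was close to that of Fdps in OCT4+SKM, at 59.4 among the dimmest probes, so its log2 size rests on a dim signal. Mvd, which decarboxylates mevalonate diphosphate, Idi1, the isomerase that supplies Fdps, and Tm7sf2, a sterol C14-reductase, passed as higher in all 3 groups too, with log2 differences of 0.56 to 0.76, 0.60 to 0.89 and 0.61 to 1.12. Msmo1, Nsdhl, Hsd17b7, Ebp and Lbr did not pass in any of the 3.

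Of 9 genes tested on the branches that lead from farnesyl diphosphate, 2 rose in HNF4a+SKM, 2 rose and 1 fell in CEBPa+SKM, 4 rose in GRB2+SKM and 4 in GATA4+SKM. Of all genes, 22.9, 20, 23.2 and 29 percent rose in these 4 groups, in the order given, and 14.7 percent fell in CEBPa+SKM. The fall among the 9 was of Ggps1, which makes geranylgeranyl diphosphate (-0.59). Dhdds, a subunit of the enzyme that makes dolichol, rose in all 4. It averaged 417 ± 4.46 in HNF4a+SKM and 129.9 ± 28.1 in SKM+EV, and its log2 differences were 1.48 in HNF4a+SKM, 1.46 in CEBPa+SKM, 1.43 in GRB2+SKM and 1.18 in GATA4+SKM. Nus1, the other subunit, passed as higher in the same 4 groups, at 0.63, 0.56, 0.83 and 0.87. Among the genes of sterol control and uptake, none of the 6 measured rose in HNF4a+SKM, CEBPa+SKM or GRB2+SKM, and 3, 2 and 4 of them fell, where 19.5, 14.7 and 17.1 percent of all genes fell, among them Insig2, which retains the SREBP escort protein, in all 3 (-0.43, -0.52 and -0.46). Of 5 transport and storage genes tested, 2, 1 and 2 rose and 1, 2 and 2 fell in HNF4a+SKM, CEBPa+SKM and GRB2+SKM. Over all genes, 22.9, 20 and 23.2 percent rose there and 19.5, 14.7 and 17.1 percent fell. Abca1, a cholesterol exporter, was lower in these 3 groups (-0.97, -1.20 and -1.27), and Npc2, which moves cholesterol out of lysosomes, was higher (1.32, 1.40 and 1.53).

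In OCT4+SKM none of the 13 rose and 5 fell against SKM+EV, where 5.73 percent of all genes fell, with a median of -0.53 beside -0.03 over all genes. Besides Fdps these were Sqle (-0.97), Mvd (-0.75), Tm7sf2 (-0.74) and Msmo1, a sterol C4-methyl oxidase (-0.63). The count was 2 to 3 whenever 1 of the 4 arrays was left out. In GATA6+SKM, where 10.2 percent of all genes fell, none rose and 4 fell, namely Mvk, Fdps, Mvd (-1.08) and Msmo1 (-0.91). GATA4+SKM had 7 rises, where 29 percent of all genes rose, and 1 fall, the fall being Msmo1 (-0.77), and its rises were 3 to 6 with 1 array left out, the lowest without SKM+EV replicate 1. SOX7+SKM had 3 rises, where 6.32 percent of all genes rose, and PAX1+SKM 2 falls, where 6.13 percent fell. MIXL1+SKM had neither, where 2.1 percent of all genes passed. In SKM+EV against MEF1 EV, Msmo1 (0.50) rose beside Fdps and Idi1 (-0.70) fell, among 9.99 percent of all genes that rose and 9.69 percent that fell, where the 2 SKM+EV arrays of Idi1 were far apart (2427 ± 1441). The count of rises was 1 without MEF1 EV replicate 2 or SKM+EV replicate 1, and that of falls 0 without either MEF1 EV array or SKM+EV replicate 1.

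In the pluripotent lines of set E, 9 of the 16 synthesis genes fell and 2 rose against fibroblasts, where 29.1 percent of all genes fell and 28.7 percent rose, a count already known for these arrays when the list was drawn up. Beyond Mvk and Sc5d, the falls were largest in Lss, the lanosterol synthase, at 423 ± 50.3 in the lines and 1748 ± 26.1 in fibroblasts (-1.98), and Nsdhl, the dehydrogenase that removes a sterol C4 carboxyl group, at 41.2 ± 7.15 in the lines and 193 ± 7.02 in fibroblasts (-1.62). The Nsdhl intensity in the lines was close to the pseudocount of 32, so its log2 size depends on that setting. Lbr, the lamin B receptor, which also carries sterol C14-reductase activity, rose (2.03), while Tm7sf2, the other C14-reductase, fell (-1.57). Pmvk, the kinase that follows Mvk, rose by 0.41 (adjusted p 0.0237), a call lost without MEF uninfected replicate 1. Fdft1, Sqle, Ebp and Dhcr7 did not pass, with log2 differences of -0.11, -0.16, 0.29 and 0.10. Of 9 control genes with a value, 5 fell beside the same 29.1 percent of all genes, including Srebf2, which encodes SREBP2 (-0.92), and Insig1 (-1.03).

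**Figure D3:**
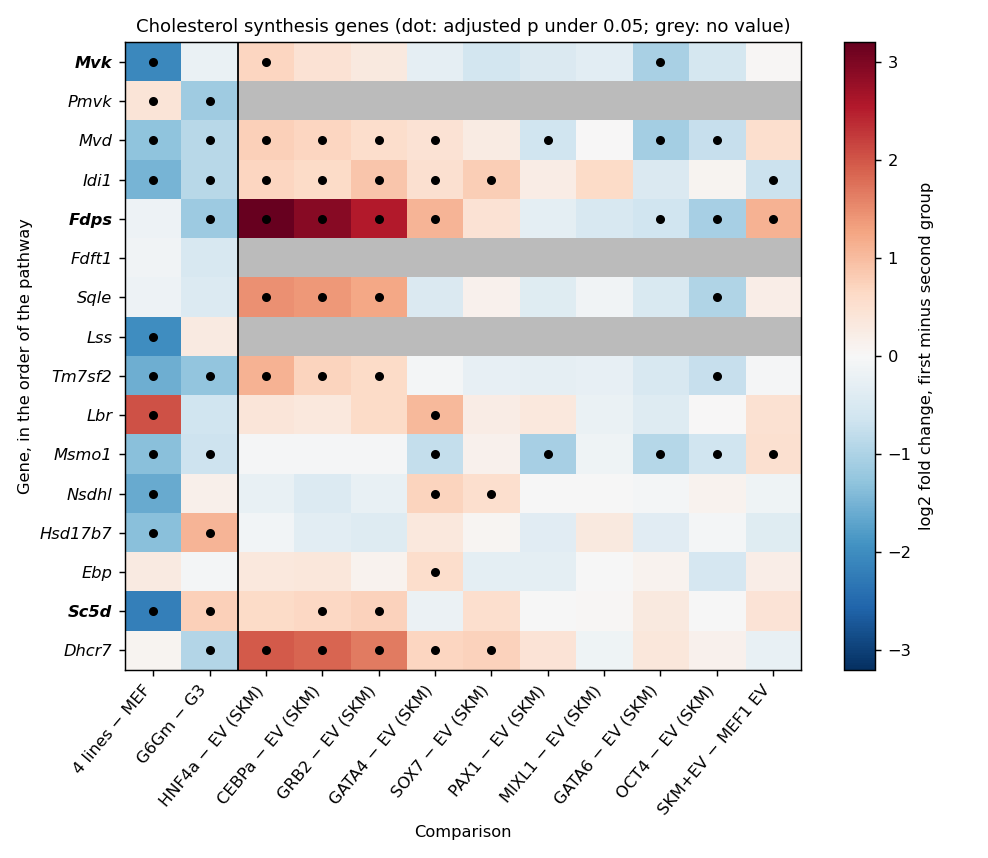
Heat map of log2 fold changes of 16 cholesterol synthesis genes, from top to bottom in the order of the pathway, across the comparisons named along the x axis; a dot marks an adjusted p under 0.05 and grey a missing value. Fdps is near 0 in the mean of the pluripotent lines (-0.16), where Mvk (-2.07) and Sc5d (-2.18) are low, and is the most raised row in HNF4a+SKM (3.19), CEBPa+SKM (2.91) and GRB2+SKM (2.53).

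Between iPSC G6Gm and iPSC G3, 7 of the 16 genes were lower in G6Gm and 2 were higher, with a median of -0.57 beside -0.04 over all genes, of which 9.01 percent were lower and 10.7 percent higher. The 7 were Fdps, Tm7sf2 (-1.27), Pmvk (-1.14), Dhcr7 (-0.94), Mvd (-0.89), Idi1 (-0.88) and Msmo1 (-0.67). Sc5d and Hsd17b7, a sterol C3-ketoreductase (1.09), were the pair that was higher in G6Gm. Fibroblast marker sums were 37857 to 38847 in iPSC G6Gm and 13626 to 13747 in iPSC G3, and their part in these differences was not tested.

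In set B, OKM+EV was compared with its own control, MEF2 EV. Sc5d had 460.1, 507 and 237 in OKM+EV, against 83.4 and 123 in MEF2 EV. The groups did not overlap, and OKM+EV was 3.89-fold higher (log2 difference 1.63, SE 0.23, adjusted p 9.15e-07). Fdps had 105, 179 and 196 in OKM+EV, against 61.4 and 61.2 in MEF2 EV, again without overlap and 2.61-fold higher (1.01, SE 0.17, adjusted p 2.02e-05). Mvk had 859, 789 and 459 in OKM+EV, against 704 and 1042 in MEF2 EV, with overlapping arrays (-0.32, 95% interval -0.71 to 0.06, adjusted p 0.173).

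In that comparison 40.8 percent of 11947 genes passed in the fit over all arrays (19.8 percent higher, 21.1 percent lower), and 5.55 percent with set B fitted alone, where the 2 calls were lost (adjusted p 0.0724 for Sc5d and 0.103 for Fdps). Of 15 synthesis genes with a value, 4 rose and 2 fell, and none did either way with the set fitted alone. The count of falls ran from 0 to 4 with 1 array left out, and moved without every array but OKM+EV replicate 1. The 2 others that rose were Sqle (0.91) and Msmo1 (0.84), and the falls were Lbr (-0.90) and Ebp (-0.84), the sterol isomerase before Sc5d. Keratinocyte markers, 7 of 8 with a value and none at 0, summed to 34633 to 64552 in OKM+EV and 1642 to 1823 in MEF2 EV; 6 of the 7 rose (median 3.83), and 5 with the set fitted alone. Macrophage markers summed to 684 to 2940.2 in OKM+EV and 31766 to 39723 in MEF2 EV, adipocyte markers to 11382 to 36264 in OKM+EV and 54603 to 67179.8 in MEF2 EV, over 4 of 5 markers each and none at 0. Their part in the difference was not tested.

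The OKM groups with a further factor, in set C, gave no call for any of the 3 genes. Mvk had 623 and 779 in OKM+SOX1, 842 and 633 in OKM+SOX3, 702 and 638 in OKM+GMNN and 815 and 601 in OKM+SOX2. Fdps had 54.1 and 82.0 in OKM+SOX1, 86.8 and 83.5 in OKM+SOX3, 89.0 and 122 in OKM+GMNN and 93.5 and 81.9 in OKM+SOX2. Sc5d had 183 and 224 in OKM+SOX1, 175 and 155 in OKM+SOX3, 138 and 208 in OKM+GMNN and 189 and 183 in OKM+SOX2. Over 6 comparisons of these groups none of the 3 genes passed, and the lowest adjusted p was 0.168, for Fdps in OKM+GMNN against OKM+SOX1 (0.46, 95% interval 0.08 to 0.85). The share of all genes that passed was 5.72, 6.31 and 7.23 percent for OKM+SOX1, OKM+SOX3 and OKM+GMNN against OKM+SOX2, 5.67 for OKM+GMNN against OKM+SOX1, 12.4 for OKM+GMNN against OKM+SOX3 and 9.08 for OKM+SOX1 against OKM+SOX3. Across the 6, the intervals reached from -0.73 to 0.77 for Sc5d, from -0.54 to 0.48 for Mvk and from -0.66 to 0.85 for Fdps.

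**Figure D4:**
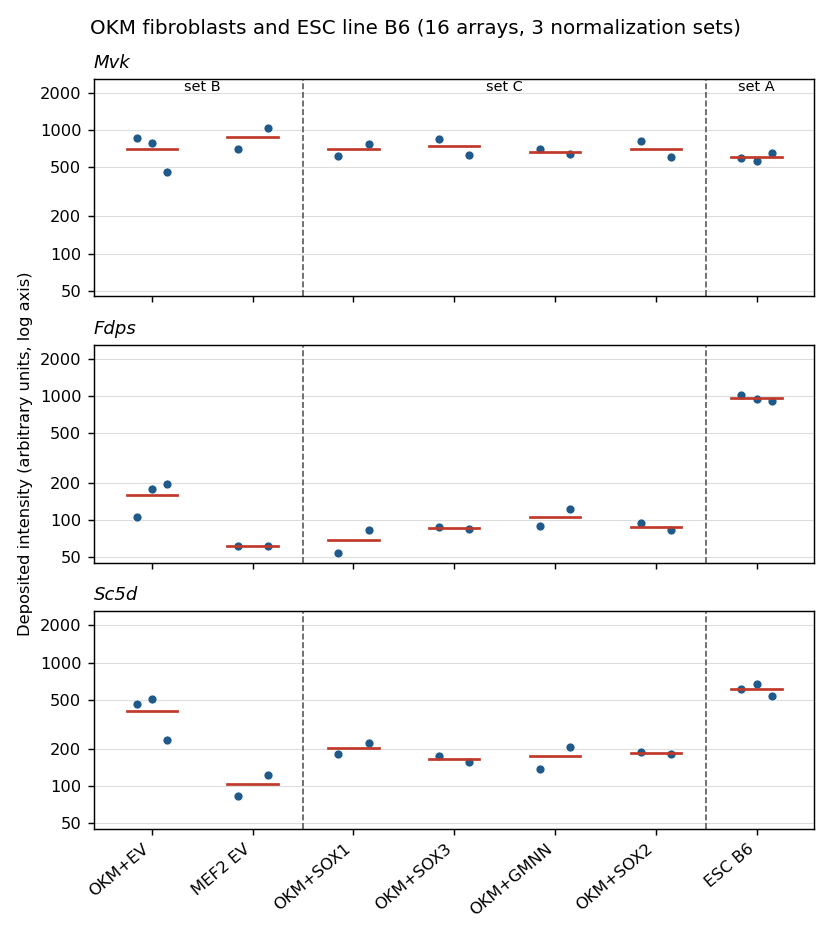
Intensity of Mvk, Fdps and Sc5d on each array of sets B and C and of ESC B6 in set A, with dashed lines between sets, on a log axis in arbitrary units; dots are arrays and red lines group means, and levels are to be compared only within a set. In set B, Sc5d lies at 237 to 507 in OKM+EV above 83.4 and 123 in MEF2 EV, and in set C the arrays of most groups overlap in each gene.

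Levels between sets can only be set side by side, since set and group cannot be told apart. ESC B6, alone in set A, had 593, 562 and 651 for Mvk, 1023, 943 and 918 for Fdps and 613, 673 and 539.8 for Sc5d. After quantile normalization of all 49 arrays over the 9896 probes with a value on each, Fdps averaged 727 in ESC B6, 1045 in ESC R1 and 1441 in HNF4a+SKM, and among the controls 57.5 in MEF1 EV, 57.1 in MEF2 EV and 1252 in uninfected fibroblasts. On that scale Mvk averaged 592 in MEF1 EV, 911 in MEF2 EV and 1739.8 in uninfected fibroblasts. Sc5d averaged 218 in MEF1 EV, 93.9 in MEF2 EV and 1739 in uninfected fibroblasts. For all 3 genes both infected fibroblast controls stood below the uninfected fibroblasts of set E. These controls lie in different sets, so a difference of cells and one of arrays cannot be told apart.

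The 3 genes did not share one pattern. Across the 11 group means of set D, Pearson's r on the log2 scale was 0.784 between Mvk and Fdps, 0.762 between Sc5d and Fdps and 0.379 between Sc5d and Mvk. Across 22 groups of sets B to E, centred in each set, r was 0.514, 0.392 and 0.619 in the same order. Among 10006 genes in set D, the means most like those of Fdps were of Hdgfl2 (r 0.987), Eif3b, a subunit of a translation initiation factor (0.987), and Med8, a Mediator subunit (0.986). Those most like Mvk were of Ctdsp2 (0.969), Rhbdf1 (0.960) and F3, the tissue factor gene (0.957), and those most like Sc5d of Cct8, a chaperonin subunit (0.970), Kctd5 (0.967) and Bag2 (0.964). Across the 22 groups and 8523 genes, the likest were Lonp1 (0.973), Eif3b (0.962) and Ext2 (0.953) for Fdps, Ctdnep1 (0.950), Atf6b (0.942) and Ifnar1 (0.937) for Mvk and Rflnb (0.898), Arl16 (0.890) and Cracd (0.889) for Sc5d. These values are descriptions over groups that share controls and arrays, taken as the highest among all genes compared.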

How the data were processed

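RNA labelled with Cy5 was hybridised to 1-colour arrays, per the labels' protocols. The authors deposited linear intensity values, 1 per probe and array, and how they were background-corrected and normalized, and with which software, no label or header states. Sorted values nearly coincide within 5 sets of arrays, so tests were kept within a set. Of 19426 probes, 15539 carry a single gene symbol, and the 3887 unnamed probes were set aside. Symbols were updated through the RefSeq table of GRCm38.p6, which named 13971 probes by current symbol and 1538 by a unique synonym, while 30 kept the platform's name. For a gene with several probes the probe with the highest mean was used. limma 3.58.1 in R 4.3.3 fitted 1 mean per group to log2(intensity + 32) over all 49 arrays, with an intensity trend in the variance, two-sided, with Benjamini-Hochberg adjustment over all genes of a contrast and a threshold of 0.05. The fit code was run on simulated arrays of sets D, E and B, each set fitted alone. The fit over all 49 arrays was not simulated. Genes tested numbered 11991 in set E, 10006 in D, 11947 in B and 11188 in C. The alternatives were pseudocounts of 1 and 100, each set fitted alone, no variance trend, the mean of all probes, dim genes left out, quantile normalization or median centring within each set, a replicate block and each array left out. The members and gene lists were chosen with earlier results of these data known. Named genes were the 3 members, the members of the synthesis list and passing members of the other pathway lists, and the genes with the highest correlation to each member. The number of arrays limits the precision.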

Additional observations from a re-analysis of the deposited data

Results flagged for a closer look

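4 differences between pluripotent groups of set E set these lines apart in the members. Fdps was lower in iPSC G6Gm than in iPSC G3 by a log2 difference of -1.16 (adjusted p 2.75e-05 from limma), and lower on both arrays. Sc5d was higher in iPSC G6Gm than in iPSC G3 by 0.76 (adjusted p 0.0314), on both arrays. Fdps was also higher in Dlx3 RNAi iPSC than in iPSC G6Gm by 0.71 (adjusted p 0.036) and higher in iPSC G3 than in ESC R1 by 0.65 (adjusted p 0.0265), each on both arrays. Of these 4 calls, all but that of Fdps in iPSC G6Gm against iPSC G3 were lost when any 1 of the 4 arrays compared was left out, at adjusted p of 0.0684 to 0.213 for Sc5d, 0.118 to 0.300 for Fdps in Dlx3 RNAi iPSC and 0.0954 to 0.181 for Fdps in iPSC G3. No group held enough arrays for a test of a single outlying array.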

How the results depend on the processing

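Of 1700 recomputed values, 1533 kept their direction and their side of the threshold (for counts, stayed within 1.5 times), 48 lost and 46 gained a call, 33 changed sign and 40 counts moved further. Array numbers gave no consistent pairing of the samples. Same-numbered arrays had correlations of their deviations from -0.496 to 0.515 in set D, with a median of 0.00833. Some pairs of groups in set D were thus far from uncorrelated. The correlations were -0.24 to 0.238 in E and -0.127 to 0.0775 in C, and 0.174 in B for its single pair. Fits of the set with a replicate block, and of the set alone, called Mvk in OCT4+SKM (-0.56), SOX7+SKM (-0.58), PAX1+SKM (-0.46) and CEBPa+SKM (0.47) against SKM+EV, Mvk in the 3 iPSC groups against ESC R1 (0.38) and Sc5d in HNF4a+SKM (0.61), and the fit of the set alone also Mvk in GATA4+SKM (-0.29). Sc5d in HNF4a+SKM also passed with a pseudocount of 100 (0.53), with no variance trend and with the mean of all probes (0.61 each). In set B fitted alone, Sc5d (1.63) and Fdps (1.01) lost their calls. Sc5d in OCT4+SKM, at -0.01, turned to 0.0028 with quantile normalization within the set and 0.0045 with median centring.

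Counts of synthesis genes moved as follows. The rises in the pluripotent lines were 1 with the mean of all probes or dim genes left out. The rises in SKM+EV were 4 with the set alone or a replicate block. OKM+EV had 0 rises and 0 falls with the set alone, and 1 rise with dim genes left out. Leaving out dim genes, fewer being tested, gave 3 rises in each of HNF4a+SKM, CEBPa+SKM and GRB2+SKM, 4 rises and 2 falls in GATA4+SKM and 3 falls in OCT4+SKM. CEBPa+SKM had 1 fall with a pseudocount of 100 or median centring, GRB2+SKM 1 fall with the set alone or a replicate block, and GATA4+SKM 3 falls with the set alone and 2 with a replicate block. Dim genes left out removed Fdps and Sc5d from every comparison outside set E, and Mvk from those of set D. The set D counts with dim genes left out therefore lack the members' own calls.

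Leaving out 1 array at a time gave these ranges of log2 differences. Against SKM+EV, Sc5d ran from -0.26 to 0.23 in OCT4+SKM, -0.27 to 0.22 in PAX1+SKM, -0.42 to 0.069 in GATA4+SKM, -0.22 to 0.27 in MIXL1+SKM, 0.42 to 0.91 in CEBPa+SKM, 0.37 to 0.86 in HNF4a+SKM and 0.49 to 0.98 in GRB2+SKM, Mvk 0.61 to 0.77 in HNF4a+SKM, and Fdps -0.76 to -0.51 in GATA6+SKM. Mvk ran from -0.056 to 0.11 in SKM+EV against MEF1 EV and from -0.60 to -0.050 in OKM+EV against MEF2 EV, where it passed without MEF2 EV replicate 1 or OKM+EV replicate 1. Against OKM+SOX2, Sc5d ran from -0.018 to 0.23 in OKM+SOX1 and -0.36 to 0.14 in OKM+GMNN, Mvk -0.22 to 0.20 in OKM+SOX1, -0.15 to 0.27 in OKM+SOX3 and -0.27 to 0.15 in OKM+GMNN, and Fdps -0.10 to 0.040 in OKM+SOX3. In OKM+GMNN against OKM+SOX1, Sc5d ran from -0.46 to 0.036 and Mvk from -0.21 to 0.099, in OKM+GMNN against OKM+SOX3 Sc5d from -0.21 to 0.29 and Mvk from -0.32 to 0.077, and in OKM+SOX1 against OKM+SOX3 Mvk from -0.26 to 0.13. In set E, Sc5d ran from -0.45 to 0.0024 in iPSC G3 against ESC R1 and -0.25 to 0.015 in Dlx3 RNAi iPSC against iPSC G6Gm, Mvk from -0.065 to 0.13 in Dlx3 RNAi iPSC against iPSC G3, and Fdps from -0.12 to 0.024 in Dlx3 RNAi iPSC against fibroblasts. The counts ran from 1 to 2 rises in the lines, 1 to 2 rises and 0 to 1 falls in SKM+EV, 0 to 4 falls in OKM+EV, 3 to 5 rises in CEBPa+SKM and in GRB2+SKM, 3 to 6 rises in GATA4+SKM, and 0 to 1 rises and 2 to 3 falls in OCT4+SKM. Why values moved was not tested beyond what a setting itself removes, and of 62 differences of the 3 genes under 0.5 in size, 2 passed.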

Other observations

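Mmab, which encodes an adenosyltransferase of vitamin B12 metabolism, was looked at after the values were seen, because it starts 242 bases from Mvk on the opposite strand in GRCm38.p6, by the starts of the promoter table, and the 2 genes share the stretch between their starts. In set E Mmab averaged 248 ± 27.3 in the 4 pluripotent groups and 1086 ± 83.5 in uninfected fibroblasts (4.38-fold lower in the lines, adjusted p 1.74e-09 from limma), beside 4.57-fold for Mvk. Log2 differences of OKM+EV against MEF2 EV in set B were 0.37 for Mmab and -0.32 for Mvk. Neither passed (adjusted p 0.103 and 0.173). In set C the 2 genes did not move alike. Mmab was lower in OKM+GMNN than in OKM+SOX3 (-0.76, adjusted p 0.0155) and lower in OKM+SOX1 than in OKM+SOX3 (-0.72, adjusted p 0.0273), while Mvk differed there by -0.12 and -0.07 and did not pass. With set C fitted alone the 2 Mmab differences had adjusted p of 0.0725 and 0.126. Mmab had no value in set D.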
